A study of Mus musculus with 6 samples.

Results

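Mest, Plagl1, Impact, Nnat, Slc38a4, Sfmbt2, Zrsr1, Nap1l5, Inpp5f and Grb10 are imprinted genes that lie alone or with few imprinted neighbours, several of them intronless retrogenes or short genes inside an intron of another gene. They were taken by symbol, and all 10 were found among the 23889 gene symbols that each table listed. Messenger RNA had been sequenced in 6 mouse libraries. The haploid cells of interest, androgenetic haploid embryonic stem cells or AG-haESCs, had 1 library for each of their lines A129-2, AOS-14 and AOS-16. Embryonic stem cells with the label XX, kept in 2i (ESC XX), had 2 libraries, and cells labelled round sperm had 1. AG-haESCs had been derived after a sperm head was injected into an oocyte freed of its spindle, so the lines hold a paternal genome only. The oocyte donors, not the source of that genome, were hybrids of C57BL/6 and DBA/2 aged 8 to 10 weeks. AG-haESCs grew on feeder cells in medium with 15% serum replacement and 2i, the pair of inhibitors of MEK and GSK3. Haploid cells in G0/G1 were sorted for RNA. ESC XX came from an Oct-GFP line of C57 background, grew in 15% serum with 1000 U/ml of LIF and 2i, and were collected after feeders were removed, with no sort named. The round sperm library carries the strain label of the AG-haESCs, and its culture and sorting text is also theirs. Strain, serum, sort, ploidy and parental origin thus differ together between AG-haESCs and ESC XX and cannot be told apart.

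An imprinted gene is read from the maternal or the paternal copy alone, because a mark laid down in the oocyte or in sperm survives in the embryo. At most of these genes the mark is DNA methylation placed in the oocyte, which silences the maternal promoter, and in embryos ZFP57 holds such marks in place by binding a methylated core written TGCCGC. Slc38a4 and Sfmbt2 are known as cases in which oocyte histone H3K27 methylation takes part in silencing the maternal allele, above all in the placenta. Grb10 is the exception in direction, being expressed from the maternal allele in most tissues and from the paternal allele in neurons.

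Promoters are shown for 6 of the genes to set those with a ZFP57 core before their start beside those without, and the CpG-rich beside the CpG-poor. Each is the run of 250 bases before an annotated start, from the promoter table of RefSeq on GRCm38.p6, written 5′ to 3′ on the strand of the gene. The expression values were made on mm9, another build, and the windows were matched by symbol. Capitals mark TGCCGC or its reverse complement GCGGCA.
Mest, chr6:30737800-30738049, + strand: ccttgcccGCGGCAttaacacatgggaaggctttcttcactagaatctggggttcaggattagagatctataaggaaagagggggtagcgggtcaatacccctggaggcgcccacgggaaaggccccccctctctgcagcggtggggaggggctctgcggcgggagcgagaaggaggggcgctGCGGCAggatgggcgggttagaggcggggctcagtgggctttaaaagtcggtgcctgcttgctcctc
Plagl1, chr10:13090582-13090831, + strand: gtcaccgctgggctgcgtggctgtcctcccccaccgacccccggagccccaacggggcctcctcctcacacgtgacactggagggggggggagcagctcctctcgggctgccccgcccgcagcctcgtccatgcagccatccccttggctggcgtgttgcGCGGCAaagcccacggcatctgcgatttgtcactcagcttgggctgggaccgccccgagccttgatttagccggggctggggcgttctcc
Nap1l5, chr6:58907127-58907376, - strand: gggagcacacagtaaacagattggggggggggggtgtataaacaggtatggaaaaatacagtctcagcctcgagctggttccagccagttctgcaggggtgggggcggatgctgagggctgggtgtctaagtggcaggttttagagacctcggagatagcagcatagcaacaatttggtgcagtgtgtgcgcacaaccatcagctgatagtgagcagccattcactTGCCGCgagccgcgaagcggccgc
Nnat, chr2:157559828-157560077, + strand: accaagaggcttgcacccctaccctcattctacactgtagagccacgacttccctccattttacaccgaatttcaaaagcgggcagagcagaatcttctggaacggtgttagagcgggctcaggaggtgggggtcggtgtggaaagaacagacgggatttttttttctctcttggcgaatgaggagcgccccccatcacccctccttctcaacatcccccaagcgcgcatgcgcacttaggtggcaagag
Grb10, chr11:12037421-12037670, - strand: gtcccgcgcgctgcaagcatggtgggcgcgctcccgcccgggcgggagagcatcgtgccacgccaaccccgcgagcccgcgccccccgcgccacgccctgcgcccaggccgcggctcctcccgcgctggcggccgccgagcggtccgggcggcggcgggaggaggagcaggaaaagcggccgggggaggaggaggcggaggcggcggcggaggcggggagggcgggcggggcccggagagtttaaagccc
Slc38a4, chr15:97055957-97056206, - strand: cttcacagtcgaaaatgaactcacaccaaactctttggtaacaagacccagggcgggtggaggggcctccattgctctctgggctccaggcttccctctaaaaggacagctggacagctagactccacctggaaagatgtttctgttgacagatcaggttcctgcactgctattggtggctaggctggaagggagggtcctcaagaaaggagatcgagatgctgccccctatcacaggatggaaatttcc

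Of the 10 genes, 9 had their promoters read, with 15 windows in all, and 3 genes held the core (Mest, Plagl1 and Nap1l5). The core was held by 9.84% of the 27025 genes and by 8.68% of the 32851 windows that RefSeq gave. The Mest window shown held 2 matches, which 0.874% of all windows reached or passed, another start a few bases on gave nearly the same window, and the start further upstream held none. The Nnat, Grb10 and Slc38a4 windows shown held none, and neither did those of Sfmbt2, Zrsr1 and Inpp5f. No match says only that these letters are not in these 250 bases. The windows differed widely in CpG, with 40 CpGs in that of Grb10, 19 in Plagl1, 14 in Mest, 12 in Nnat, 10 in Nap1l5 and 3 in Slc38a4, against a median of 6 over all windows.

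Estimated depth lay between 8.42 M and 17.74 M fragments (M, mega) per library, and 11406 to 12515 genes reached an FPKM of 1, fragments scaled to transcript length and library depth. By summed level, the libraries carried the markers of their labels. Of 6 pluripotency markers, the summed level was 1760 to 2070 FPKM in AG-haESCs, 1550 and 1530 in ESC XX and 243 in round sperm. Klf4 made up 219 FPKM of the sum in round sperm, above its level in AG-haESCs (46.5 to 116) and ESC XX (76.8 and 76.4). Zfp42 was uneven, at 331, 54.9 and 39.8 FPKM in A129-2, AOS-14 and AOS-16. Of 6 spermatid markers the summed level was at most 1.85 FPKM in an AG-haESC line and at most 0.316 in ESC XX, against 37500 in round sperm. Markers of feeder fibroblasts were present and uneven. Col1a1, the main collagen chain of fibroblasts, was at 5.68, 39.9 and 52.1 FPKM in A129-2, AOS-14 and AOS-16, at 357 and 346 in ESC XX and at 0.55 in round sperm. In AOS-14, 12.7% of the FPKM total lay in genes under 200 nt, against 6.26% in round sperm and at most 0.111% in the other 4 libraries. Eef1a1, a translation factor that every cell uses, was listed at 0 in all 3 AG-haESC lines, so a value of 0 does not always mean that no RNA was present. In bulk RNA, fewer cells of a type and less RNA per cell cannot be told apart.

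**Figure D1:**
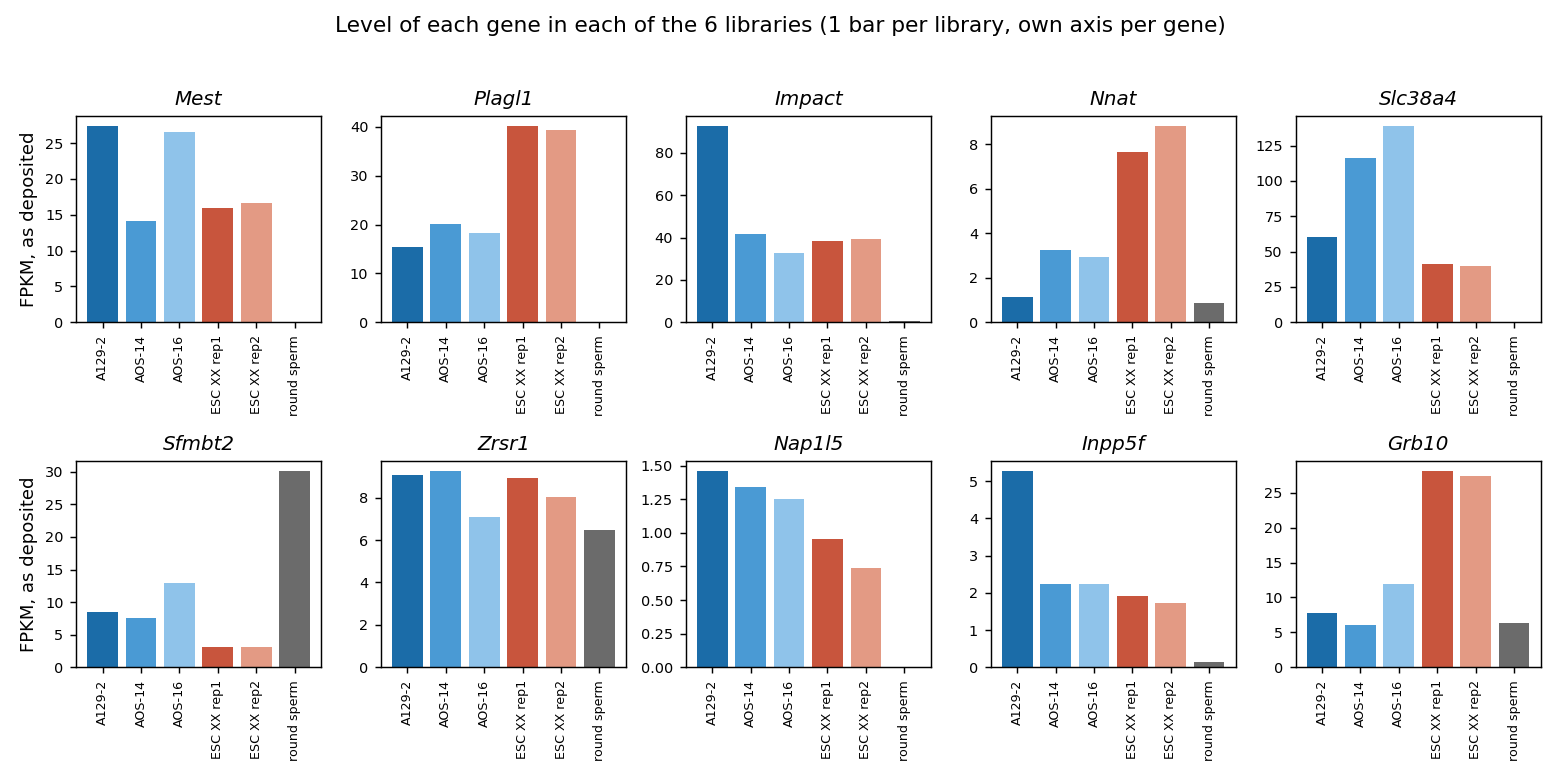
Level of each of the 10 genes in each of the 6 libraries, in FPKM as deposited, with 1 bar per library and an axis of its own for each gene. Blue bars are the AG-haESC lines, red bars ESC XX (scaled in tables of their own) and grey bars round sperm. Slc38a4 is highest in AG-haESCs (60.0 to 139 FPKM), Grb10, Plagl1 and Nnat in ESC XX, and Sfmbt2 in round sperm (30.1 FPKM).

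Slc38a4, a transporter of neutral amino acids that placental growth depends on, had the highest mean level of the 10 genes in AG-haESCs. It stood at 60.0, 116 and 139 FPKM in A129-2, AOS-14 and AOS-16, at 41.1 and 39.8 in ESC XX and at 0.221 in round sperm. All 3 lines lay above both ESC XX libraries, and round sperm lay far below every other library. Impact, an inhibitor of the amino acid sensing kinase GCN2, came next, at 92.8, 41.6 and 32.9 FPKM in A129-2, AOS-14 and AOS-16, at 38.5 and 39.4 in ESC XX and at 0.369 in round sperm. The lines lay on both sides of ESC XX, with A129-2 apart from the rest.

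Mest, a hydrolase-like protein of mesoderm and placenta also called Peg1, stood at 27.4, 14.1 and 26.6 FPKM in A129-2, AOS-14 and AOS-16, at 15.9 and 16.7 in ESC XX and at 0.0419 in round sperm. Plagl1, a zinc finger transcription factor that restrains growth and is also called Zac1, stood at 15.4, 20.2 and 18.3 FPKM in A129-2, AOS-14 and AOS-16, at 40.2 and 39.3 in ESC XX and at 0.0362 in round sperm. The ESC XX libraries lay above every line for Plagl1 and between the lines for Mest. With the estimated depth and the longest annotated transcript, the round sperm values stand for about 1.09 fragments of Mest and 1.86 of Plagl1, and for 8.47 of Slc38a4 and 13.5 of Impact, and that of Inpp5f below for 6.52.

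Sfmbt2, a Polycomb group protein required in trophoblast, stood at 8.45, 7.63 and 13 FPKM in A129-2, AOS-14 and AOS-16, at 3.06 and 3.12 in ESC XX and at 30.1 in round sperm. It was the only member whose highest library was round sperm, and all 3 lines lay between round sperm and ESC XX. Grb10, an adaptor that dampens insulin and IGF receptor signalling, stood at 7.83, 6.10 and 11.9 FPKM in A129-2, AOS-14 and AOS-16, at 28.1 and 27.4 in ESC XX and at 6.35 in round sperm. The lines lay near round sperm, and both ESC XX libraries were above them all.

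The remaining 4 genes were lower or flatter. Zrsr1, a splicing factor gene that arose as a retrogene of X-linked Zrsr2, stood at 9.06, 9.25 and 7.07 FPKM in A129-2, AOS-14 and AOS-16, at 8.92 and 8.01 in ESC XX and at 6.45 in round sperm. As a ratio of the highest to the lowest library, its range was the narrowest of the 10 genes. Nap1l5, a retrogene related to the NAP1 histone chaperones, stood at 1.46, 1.34 and 1.25 FPKM in A129-2, AOS-14 and AOS-16 and at 0.954 and 0.740 in ESC XX, and was listed at 0 in round sperm. Inpp5f, an inositol phosphatase of endosomes, stood at 5.27, 2.23 and 2.24 FPKM in A129-2, AOS-14 and AOS-16, at 1.91 and 1.73 in ESC XX and at 0.141 in round sperm. Of Inpp5f, a short variant is the imprinted one, and the tables hold 1 value per gene and so cannot tell it from the rest. Nnat, a small membrane protein of the endoplasmic reticulum of neurons and endocrine cells, stood at 1.12, 3.23 and 2.91 FPKM in A129-2, AOS-14 and AOS-16, at 7.67 and 8.82 in ESC XX and at 0.856 in round sperm. The lowest line value of Nnat rests on about 13.6 fragments, so it is among the least precise of these levels.

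Ordered by mean level in AG-haESCs, Slc38a4 (105 ± 40.7 FPKM, SD, n = 3) and Impact (55.8 ± 32.4) did not differ beyond their spread. Mest followed (22.7 ± 7.48) with Plagl1 (18 ± 2.44), which lay within the range of the Mest values. Sfmbt2 (9.70 ± 2.90), Grb10 (8.61 ± 2.98) and Zrsr1 (8.46 ± 1.21) overlapped one another. Inpp5f (3.24 ± 1.75) and Nnat (2.42 ± 1.14) overlapped, and Nap1l5 was lowest on average (1.35 ± 0.104), within the range of Nnat. Plagl1 lay above Sfmbt2 in every line.

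AG-haESCs were set against round sperm to show which of these genes are on in the haploid cells and off in the male germ cells, within the table the 4 libraries share. Slc38a4, Impact, Mest, Plagl1 and Nap1l5 were higher in AG-haESCs, Sfmbt2 was lower, and Inpp5f, Nnat, Grb10 and Zrsr1 passed the test in neither direction. The genes called higher, and Inpp5f and Nnat, reached 1 FPKM, the bound for being tested, in the lines alone. This fixed the direction of any call for them. The two-sided test was limma on log2(FPKM + 1), its variance trended on the mean, with n = 3 and 1, a Benjamini-Hochberg adjusted p under 0.05 over all 15938 genes tested and a log2 difference of at least 1 in size. Of all genes tested 61.9% were called, 22.8% higher and 39.1% lower in AG-haESCs, and of the 10 genes 5 were called higher and 1 lower. The median log2 difference of the 10 genes was 1.53 and that of all genes -0.49. With the libraries rescaled to the same total the median of all genes was 0.40 and the share of calls that were higher 52.1%, against 36.8% as deposited, so the differences below are also given relative to the median of all genes.

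Slc38a4 was higher by 6.36 ± 0.63 (log2 ± SE, limma, adjusted p = 0.00749), or 6.85 above the median of all genes. Impact was higher by 5.23 ± 0.76 (adjusted p = 0.0165), Mest by 4.45 ± 0.52 (adjusted p = 0.0103) and Plagl1 by 4.19 ± 0.21 (adjusted p = 0.00199), which is 5.72, 4.95 and 4.68 above that median. Nap1l5, at 0 in round sperm, had a difference of 1.23 ± 0.07 (adjusted p = 0.00241), a size that the pseudocount of 1 sets in large part, as it was 3.86 with a pseudocount of 0.1. Like the other genes called higher, it reached 1 FPKM, the bound for being tested, in the lines alone. Plagl1 and Nap1l5 were called under all 9 alternatives. Without AOS-14, Slc38a4 (adjusted p = 0.0530) and Impact (adjusted p = 0.0789) missed the threshold and 3 of the 10 genes were called, and without AOS-16 so did Mest (adjusted p = 0.0520) and Impact (adjusted p = 0.0501). Their differences stayed above 4 on the log2 scale in each of these fits.

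Sfmbt2 had 9.70 ± 2.90 FPKM in AG-haESCs (SD, n = 3) and 30.1 in round sperm, a difference of -1.57 ± 0.38 (log2 ± SE, limma, adjusted p = 0.0452), or -1.08 relative to the median of all genes. This call was held by 3 of the 9 alternatives, with adjusted p between 0.0280 and 0.433, and was lost in all 3 other scalings (difference -0.55 when rescaled to the same total). Inpp5f differed by 1.82 ± 0.55 (adjusted p = 0.0710) and passed with a pseudocount of 0.1 (adjusted p = 0.0278) and without A129-2 (adjusted p = 0.00720). Nnat differed by 0.82 ± 0.54 (adjusted p = 0.274) and was called without A129-2 alone (adjusted p = 0.0232). Zrsr1 differed by 0.34 ± 0.21 (adjusted p = 0.252) and was called when rescaled to the same total (1.31, adjusted p = 0.0361) and when genes under 200 nt were first dropped (adjusted p = 0.0268). Grb10 differed by 0.34 ± 0.44 (adjusted p = 0.535) and was called under none of the 9 alternatives, the lowest adjusted p being 0.127. These p-values measure only the spread between the 3 lines, which leaves 2 residual degrees of freedom, and take the single round sperm library to be as variable as a line.

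**Figure D2:**
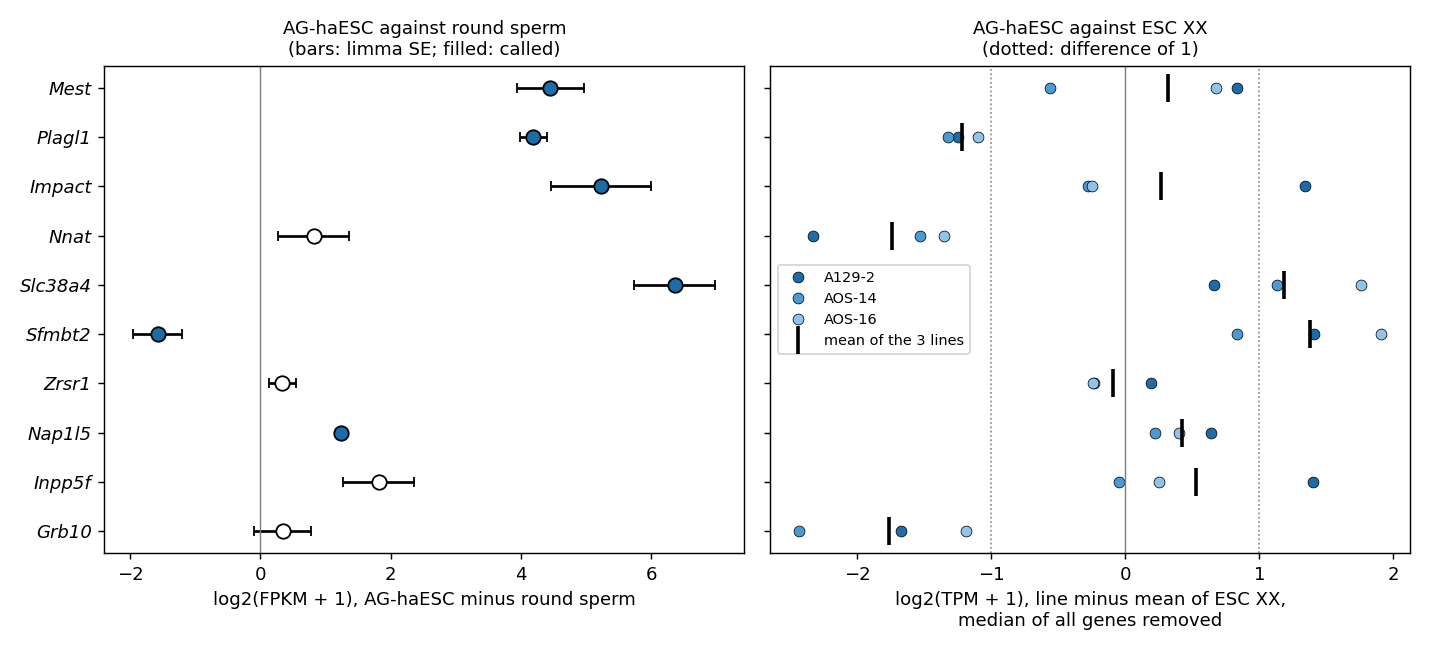
Differences of the 10 genes between AG-haESCs and round sperm (left, log2 scale, circles with limma SE, filled where called) and between AG-haESCs and ESC XX (right, log2 scale, 1 point per line and a bar at the mean of the 3 lines, dotted lines at a difference of 1). On the left Slc38a4 is highest at 6.36 and Sfmbt2 is the one gene below 0, and on the right all 3 lines lie below 0 for Plagl1, Nnat and Grb10 and above 0 for Slc38a4, Sfmbt2 and Nap1l5.

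Against ESC XX the question was how a purely paternal genome compares with an embryonic stem cell labelled XX. Slc38a4 and Sfmbt2 were higher in AG-haESCs, while Grb10, Nnat and Plagl1 were lower, and Mest, Impact, Inpp5f, Nap1l5 and Zrsr1 met neither bound. Because the ESC XX tables were scaled apart, no test was run. Each library was rescaled to the same total (TPM), the median difference of log2(TPM + 1) was removed, and a gene was called when the means differed by at least 1 and the range of the lines did not reach either ESC XX library. Of 13172 genes compared 15.6% were called, 7.37% higher and 8.28% lower in AG-haESCs, against 2 higher and 3 lower among the 10 genes. The lines did not overlap ESC XX for 6 of the 10 genes, against 50.6% of all genes. The median difference of the 10 genes was 0.29, against 0 for all genes by construction.

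Grb10 was at 15.4, 8.62 and 21.8 TPM in A129-2, AOS-14 and AOS-16 and at 55.3 and 54.0 TPM in ESC XX, a difference of -1.76 ± 0.63 (log2 ± SD of the 3 lines). Nnat was at 2.19, 4.57 and 5.32 TPM in A129-2, AOS-14 and AOS-16 and at 15.1 and 17.4 TPM in ESC XX (-1.74 ± 0.52). Plagl1 was at 30.2, 28.6 and 33.6 TPM in A129-2, AOS-14 and AOS-16 and at 79.2 and 77.4 TPM in ESC XX (-1.22 ± 0.11), with the smallest spread between lines of the 5 genes called. Plagl1 and Nnat are paternally expressed genes and Grb10 is maternally expressed in most tissues, while Slc38a4 and Sfmbt2, called higher, are paternally expressed. The part of parental origin in these differences was not tested.

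Feeder fibroblast markers moved the same way as Grb10, Nnat and Plagl1. Of 10 markers 9 were lower in all 3 lines than in both ESC XX libraries, with a median difference of -3.26, and the summed level was 138, 223 and 275 FPKM in A129-2, AOS-14 and AOS-16 and 1080 FPKM in each ESC XX library. No fibroblast marker was at 0 in all lines. Among the lines, A129-2 was the lowest for 9 of the 10 fibroblast markers and for Nnat, while Grb10 was lowest in AOS-14 and Plagl1 in A129-2 by FPKM but in AOS-14 by TPM. The part of feeder cells in the differences of Grb10, Nnat and Plagl1 was not tested.

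Slc38a4 was at 118, 164 and 254 TPM in A129-2, AOS-14 and AOS-16 and at 81.0 and 78.4 TPM in ESC XX, a difference of 1.18 ± 0.55. Without AOS-16 this was 0.93, under the bound. Sfmbt2 was at 16.6, 10.8 and 23.8 TPM in A129-2, AOS-14 and AOS-16 and at 6.03 and 6.14 TPM in ESC XX (1.38 ± 0.54). Of 8 markers of trophoblast, where both genes are known to act, 5 passed the filter. Of these, 3 were called higher in AG-haESCs and none lower, against 7.37% higher and 8.28% lower over all genes. They were Gata3 (1.69), Hand1 (1.51) and Tfap2c (1.25), while Krt8 (0.43) and Krt18 (0.64) were not called. Hand1, at 0.317 and 0.338 FPKM in ESC XX, passed the filter through the lines alone, which fixed its direction. The summed trophoblast level was 76.7, 121 and 61.2 FPKM in A129-2, AOS-14 and AOS-16, and 42.7 and 40.4 FPKM in ESC XX. The defining factors Cdx2 and Elf5 did not pass the filter. Cdx2 was lower in the lines (0.222, 0.130 and 0.0475 FPKM in A129-2, AOS-14 and AOS-16) than in ESC XX (0.616 and 0.914). Elf5 was at no more than 0.315 FPKM in any line. The order of the lines in the summed level was not that of Slc38a4 or Sfmbt2. The part of such cells was not tested.

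Nap1l5 differed by 0.42 ± 0.21, with all lines above ESC XX but under the bound. The differences of Mest (0.32 ± 0.77), Impact (0.27 ± 0.92) and Inpp5f (0.53 ± 0.77) were smaller than the spread between lines, and so was that of Zrsr1 (-0.09 ± 0.24). For Impact the sign rested on A129-2, whose own difference was 1.34, while AOS-14 had -0.28 and AOS-16 had -0.25.

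The 3 lines were set against each other because each is its own derivation. With 1 library per line these differences had no replicate check. Impact was in A129-2 above AOS-14 by 1.14 and above AOS-16 by 1.47 (differences of log2(FPKM + 1)), and Slc38a4 was in A129-2 below AOS-16 by 1.20 on that scale (-1.20). These were the members past a difference of 1, so 1 of 10 was past it between A129-2 and AOS-14, 2 between A129-2 and AOS-16 and 0 between AOS-14 and AOS-16. Over 12637 genes the shares were 14.1%, 12.1% and 6.52%, near those of the members. Just short of the bound were Nnat, lower in A129-2 than in AOS-14, Inpp5f, higher in A129-2 than in AOS-14 (0.96) and AOS-16 (0.95), and Slc38a4 between A129-2 and AOS-14 (-0.94). The fold between the highest and the lowest line was 2.90 for Nnat, 2.82 for Impact, 2.37 for Inpp5f and 2.32 for Slc38a4, and 1.17 for Nap1l5, 1.31 for Plagl1 and 1.31 for Zrsr1.

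These values moved with the scaling. Between A129-2 and AOS-14, the deposited scale put 715 genes at least 2-fold above in A129-2 and 1063 in AOS-14, and rescaling to the same total put 1961 above in A129-2 and 720 in AOS-14. Mest then passed the bound between A129-2 and AOS-14 (1.39, against 0.91 as deposited) and between AOS-14 and AOS-16 (-1.25, against -0.87). Inpp5f passed it between A129-2 and AOS-14 (1.45) and between A129-2 and AOS-16 (1.16), and Sfmbt2 (-1.07) and Grb10 (-1.24) between AOS-14 and AOS-16. With genes under 200 nt first dropped, Sfmbt2 was short of the bound (-0.89) and Grb10 past it (-1.07). By quantile normalization Sfmbt2 (-0.82), Grb10 (-0.98) and Inpp5f between A129-2 and AOS-16 (0.99) were short of it. Impact and Slc38a4 kept their calls in every scaling run.

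**Figure D3:**
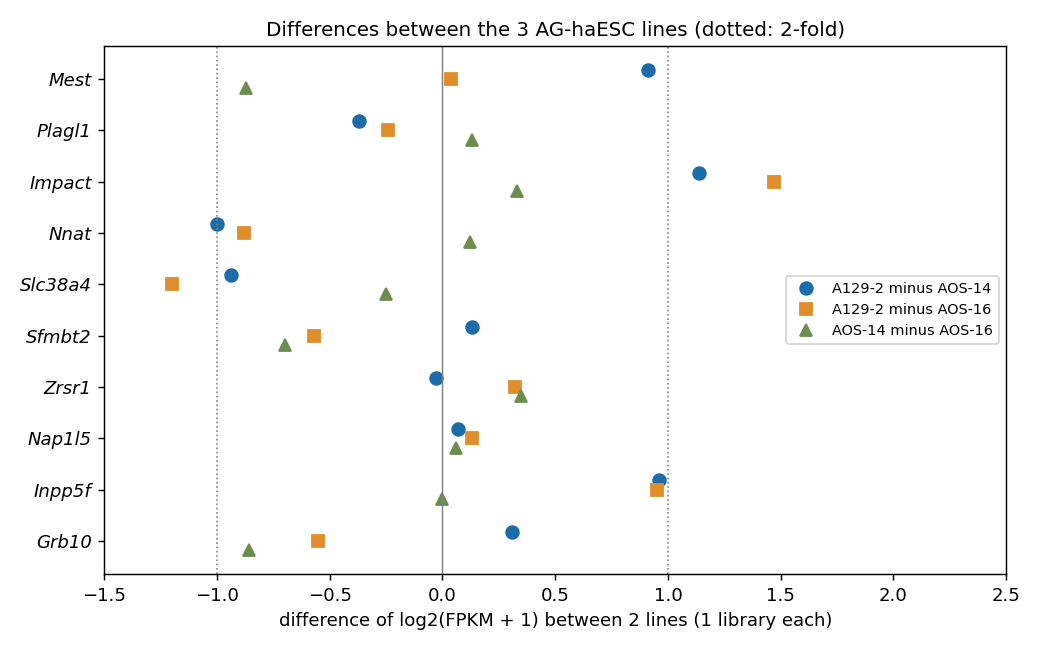
Differences of log2(FPKM + 1) between each pair of AG-haESC lines for the 10 genes, with dotted lines at 2-fold. Impact lies past the line in both pairs with A129-2 (1.14 and 1.47) and Slc38a4 in one (-1.20), while Plagl1, Zrsr1 and Nap1l5 stay within 0.37 of 0.

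Several of the genes sit in or over another gene, so the values of those genes are given beside theirs. In the annotation, Nap1l5 lies within Herc3, Zrsr1 within Commd1 and Nnat within Blcap, each on the opposite strand, and Mest overlaps the end of Copg2 on the opposite strand. Exons of Zrsr1 shared 9.17% of their bases with Commd1 and those of Mest 23.1% with Copg2, while Nap1l5 and Nnat shared none with their hosts. How strand was used in counting is not given in the sources used here, so in the shared bases reads of Mest and Copg2, or of Zrsr1 and Commd1, may not have been told apart.

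Of these hosts and partners, Herc3 was called higher and Commd1 lower than in round sperm, and none was called against ESC XX. Blcap, named for its loss in bladder cancer, was at 8.94, 10.1 and 8.25 FPKM in A129-2, AOS-14 and AOS-16, at 11.8 and 11.7 in ESC XX and at 11.4 in round sperm, and its difference from ESC XX was -0.45 ± 0.15, beside -1.74 ± 0.52 for Nnat. Copg2, a coatomer subunit, was at 23.8, 24.2 and 23.1 FPKM in A129-2, AOS-14 and AOS-16, at 14.0 and 15.2 in ESC XX and at 26.5 in round sperm, the library in which Mest was near 0. Commd1, which acts in copper balance, was at 54.4, 58.7 and 41.7 FPKM in A129-2, AOS-14 and AOS-16 and at 226 in round sperm, lower in AG-haESCs (-2.12, limma, adjusted p = 0.0118), while Zrsr1 inside it was not called. Herc3, a ubiquitin ligase, was at 6.81, 4.09 and 4.93 FPKM in A129-2, AOS-14 and AOS-16 and at 1.13 in round sperm, and was higher in AG-haESCs (1.53, adjusted p = 0.0335), as Nap1l5 was.

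**Figure D4:**
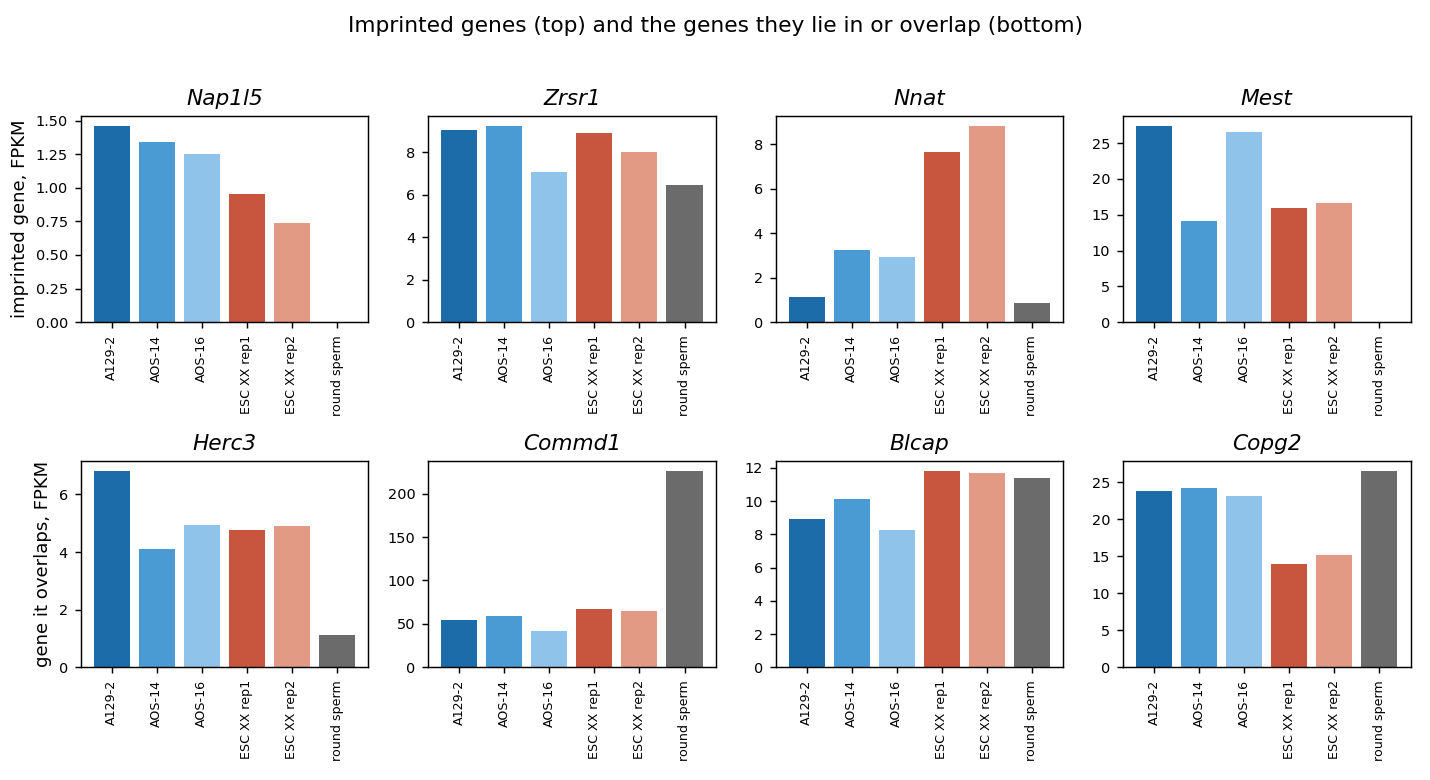
Levels in FPKM of 4 imprinted genes (top) and of the genes they lie in or overlap (bottom) in the 6 libraries, AG-haESC lines in blue, ESC XX in red and round sperm in grey. Copg2 is at 26.5 FPKM in round sperm, where Mest is at 0.0419, and Commd1 is highest in round sperm at 226 FPKM, where Zrsr1 is at 6.45.

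Of the 23 protein-coding genes that overlap or flank the 10 members and are in the tables, 20 were tested against round sperm. There 6 were higher and 9 lower in AG-haESCs, against 22.8% higher and 39.1% lower over all genes. With ESC XX 16 were compared, where none was higher and 2 were lower, against 7.37% and 8.28% over all genes. The 2 were Ddc, which makes dopamine and serotonin and is imprinted with Grb10 in some tissues, and Slc38a2, the amino acid transporter next to Slc38a4. Ddc was at 6.07, 3.51 and 2.84 FPKM in A129-2, AOS-14 and AOS-16 and at 13.5 and 13 FPKM in ESC XX (-1.69 ± 0.63), the same side as Grb10. Slc38a2 was at 37.9, 32.3 and 40.3 FPKM in A129-2, AOS-14 and AOS-16 and at 70.6 and 72.3 FPKM in ESC XX (-1.05 ± 0.39), the other side from Slc38a4. Prkcq, a protein kinase C and the nearest protein-coding gene after Sfmbt2, was at most 0.0597 FPKM in a line and at 84.4 FPKM in round sperm. Mir335 in Mest and the 33 miRNA names of the Sfmbt2 cluster that the tables list were at 0 in every library. Such RNAs are too short for this kind of library, so nothing is read from those zeros.

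Of 12 paralogs of the members, 11 were tested against round sperm, with 6 higher and 2 lower in AG-haESCs (22.8% and 39.1% over all genes). Of 12 compared with ESC XX 1 was higher and 2 lower (7.37% and 8.28% over all genes). Zrsr2, the X-linked source of Zrsr1, was at 31.0, 33.1 and 31.2 FPKM in A129-2, AOS-14 and AOS-16, at 15.6 and 15.9 in ESC XX and at 0.477 in round sperm (4.47 ± 0.10 against round sperm, limma, adjusted p = 0.000385), where Zrsr1 was at 6.45. Zrsr2 passed the filter against round sperm through the lines alone, which fixed its direction. Nap1l3, an X-linked relative of Nap1l5, was at 3.83, 3.33 and 1.80 FPKM in A129-2, AOS-14 and AOS-16, and at 0.114 and 0.0399 in ESC XX (2.47 ± 0.50). Sfmbt1 was at 3.37, 2.99 and 2.91 FPKM in A129-2, AOS-14 and AOS-16 and at 58.8 in round sperm (-3.87 ± 0.12, adjusted p = 0.000821), on the same side as Sfmbt2. Grb14, a relative of Grb10, was at 0.610, 0.889 and 0.628 FPKM in A129-2, AOS-14 and AOS-16 and at 2.58 in each ESC XX library (-1.37 ± 0.04). Against ESC XX, Grb14 reached 1 FPKM, the bound for being compared, in ESC XX alone and Nap1l3 in the lines alone, which fixed their directions. No run of 50 bases was shared between the annotated transcripts of a member and those of its listed paralogs.

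Among 16 partners in function, 14 were tested against round sperm, with 5 higher and 2 lower in AG-haESCs (22.8% and 39.1% over all genes). With ESC XX 14 were compared, with none higher and 1 lower (7.37% and 8.28% over all genes). Eif2ak4, the GCN2 kinase that Impact restrains, was at 7.43, 10.9 and 10.2 FPKM in A129-2, AOS-14 and AOS-16 and at 0.156 in round sperm (3.17 ± 0.28, limma, adjusted p = 0.00588). Its direction was fixed, as it passed the filter through the lines alone. Gcn1l1, the GCN2 activator that Impact binds, went the other way, at 17.5, 12.5 and 11.8 FPKM in A129-2, AOS-14 and AOS-16 and at 53.1 in round sperm (-1.88 ± 0.29, adjusted p = 0.0189). Irs1, an insulin receptor substrate in the pathway that Grb10 dampens, was the partner lower than in ESC XX (-1.64 ± 0.13). It was at 0.0486, 0.141 and 0.167 FPKM in A129-2, AOS-14 and AOS-16 and at 1.46 and 1.57 in ESC XX. It passed the filter through ESC XX alone, which fixed the direction. The receptors Insr and Igf1r were called in neither comparison. Pparg, a target of Plagl1, was at no more than 0.0684 FPKM in a line and at 0.795 and 0.820 in ESC XX, under the filter of 1 FPKM there. Against round sperm, where it was at 1.76 FPKM, it differed by -1.40. It passed the filter there through round sperm alone, which fixed the direction, and its small spread is that of lines near 0.

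Other imprinted genes give the setting. Beside their counts, the shares over all genes were 22.8% higher and 39.1% lower against round sperm, and 7.37% and 8.28% against ESC XX. Of 19 other paternally expressed genes, 15 were tested against round sperm, with 7 higher and 4 lower, and 14 were compared with ESC XX, with 2 higher and 4 lower. The most different were Peg10 (5.09) and Ndn (3.92) against round sperm, and Igf2 (-4.51) and Peg12 (2.32) against ESC XX. Peg10 and Ndn passed the filter against round sperm through the lines alone, which fixed their directions. Of 23 other genes listed as maternally expressed, 18 were tested against round sperm, with 3 higher and 4 lower. Compared with ESC XX were 16, with none higher and 4 lower, of which Ddc is imprinted in some tissues only. There Cd81 (6.23) and Asb4 (-5.65) differed most from round sperm, and Dcn (-3.27) and Osbpl5 (-2.75) from ESC XX, and Dcn is itself a fibroblast marker. Asb4 passed the filter through round sperm alone and Osbpl5 through ESC XX alone, which fixed their directions. Mcts2, a retrogene like Zrsr1 and Nap1l5 and named here after its values were seen, was at 25.9, 22.5 and 12.0 FPKM in A129-2, AOS-14 and AOS-16, at 40.1 and 40.8 in ESC XX and at 92.4 in round sperm, and was lower in AG-haESCs than in round sperm (-2.21 ± 0.55, limma, adjusted p = 0.0497) and ESC XX (-1.15 ± 0.59). Gab1, Jade1 and Smoc1, which like Slc38a4 and Sfmbt2 are known for imprinting by oocyte H3K27 methylation, were not called against ESC XX. Against round sperm Jade1 (4.43) and Gab1 (2.75) were higher and Smoc1 was lower (-1.60), and Jade1 passed the filter through the lines alone, which fixed its direction.

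Of 7 keepers of imprints, 2 were higher than in round sperm, Dppa3 (5.89 ± 0.75, limma, adjusted p = 0.0126) and Dnmt1 (3.80 ± 0.34, adjusted p = 0.00606), and Dppa3 was higher than in ESC XX (1.09 ± 0.73). The shares higher over all genes were 22.8% against round sperm and 7.37% against ESC XX. Against round sperm Dppa3 passed the filter through the lines alone, which fixed its direction. Zfp57, which binds the core shown in the promoters, was at 85.7, 116 and 87.7 FPKM in A129-2, AOS-14 and AOS-16, at 171 and 168 in ESC XX and at 56.0 in round sperm, and was called in neither comparison (-0.92 ± 0.03 against ESC XX). The 2 comparisons share the AG-haESC libraries.

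Over the 6 libraries, the gene most like each member in Pearson's r of log2(TPM + 1) is a description, since the points are 3 cell types and 220 to 3189 other genes reached r = 0.95 for every member but Sfmbt2. The closest were Sec23a and Ccdc25 for Mest (0.9993 and 0.9991), Acsl3 and Snrpa1 for Plagl1 (0.9998 and 0.9994), Orc6 and Mob1a for Impact (0.9996 each) and Cat and Smtnl2 for Slc38a4 (0.9995 and 0.9994). For Zrsr1 they were 2210016F16Rik and Gm11627 (0.9981 and 0.9974), for Nap1l5 Tgif2 and Sfxn5 (0.9974 and 0.9958) and for Inpp5f Elavl1 and March8 (0.9981 and 0.9980). For Grb10 they were Tbxa2r and Rere (0.9979 and 0.9969). Sfmbt2, with its maximum in round sperm and its minimum in ESC XX, had 19 genes at r = 0.95 or above of 13622 compared, led by Ube2q2 (0.9967) and 2900011O08Rik (0.9939). Nnat was most like Nfib (0.9977), a transcription factor of connective tissue and brain, and Serpinf1 (0.9962), a secreted protein of fibroblasts. Serpinf1 was at 0.992, 7.43 and 8.08 FPKM in A129-2, AOS-14 and AOS-16, at 44.0 and 42.9 in ESC XX and at 0.071 in round sperm. For Nnat 220 genes reached r = 0.95, and the part of feeder cells in its pattern was not tested.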

How the data were processed

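Messenger RNA was measured in 6 libraries. Per the labels' protocols, polyA RNA was made into libraries with a stranded kit. The submitters' tools were TopHat2 2.0.13 and Cuffdiff 2.2.1, with mm9 as the build, per the submitters' processing notes. Their settings, annotation and strand use were not given in the sources used here. Values made by the authors and used here are FPKM. The header of the table of AG-haESCs and round sperm names no unit, and there the tool and the values gave it. The 2 ESC XX tables were scaled apart from it.

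Read counts were not used here. Depth was estimated from the steps of low values in genes with 1 annotated transcript (GENCODE M21) and is approximate. Genes reaching 1 FPKM in at least 1 library of a comparison were kept. AG-haESCs and round sperm were compared with limma 3.58.1 in R 4.3.3, with a pseudocount of 1. ESC XX and the lines were compared by size and overlap in Python 3.11.15, without a test. Nothing says that the ESC XX libraries are separate cultures. Both methods were tested on simulated data. The members and lists were chosen with earlier results of these data known. The rule for named genes took all 10 members, the genes overlapping or next to them, fixed lists of paralogs and partners, and of the other lists the 2 genes most different among those called. Of the listed symbols, Phf17 (present as Jade1) and Rhox5 were not matched. Alternatives covered the pseudocount, the filter, scaling, the trend and each library left out.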

Additional observations from a re-analysis of the deposited data

How the results depend on the processing

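No paired analysis was possible because the labels number the ESC XX libraries but give the AG-haESC lines no replicate number, and round sperm has 1 library. Against round sperm, 6 of the 10 genes were called, near the 61.9% of all genes tested, and leaving out 1 line gave between 3 (without AOS-14) and 7 (without A129-2). The count of all genes called stayed within 1.5 times the 9864 of the deposited scale under all 9 alternatives, and against ESC XX within 1.5 times 2061 under all 11. Against ESC XX the share of calls higher in AG-haESCs was 47.1%, and 33.1% with no median removed or 32.1% with no filter. Between lines, 1778 genes differed at least 2-fold between A129-2 and AOS-14 (2743 with a pseudocount of 0.1, 2681 rescaled to the same total), 1531 between A129-2 and AOS-16 (2499 with a pseudocount of 0.1) and 824 between AOS-14 and AOS-16 (1519 and 1413). The cause of these moves was not tested. No called member changed sign. Values that rest on few fragments (Nnat, Nap1l5 and the round sperm values of Mest, Plagl1, Inpp5f, Slc38a4 and Impact) limit what can be read from small differences.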
